A study of Mus musculus with 6 samples.

Results

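Messenger RNA levels of 10 genes of cellular iron uptake, storage and export (Tfrc, Slc11a2, Steap3, Fth1, Ftl1, Ncoa4, Slc40a1, Hmox1, Ireb2 and Aco1) were taken by symbol from a table of 17912 genes. All 10 were found, and all 10 passed the filter on low values. The table covers poly(A) RNA of 6 mouse libraries whose cell type label is embryonic stem cell (ESC), a pluripotent cell grown from the early embryo. Of these, 3 are wild-type controls (replicates 1, 2 and 3) and 3 are EXOSC2 knockdown clones (clones 5, 6 and 7) made with a short hairpin RNA against Exosc2, a subunit of the RNA-degrading exosome. The labels do not say whether the controls carried a hairpin, whether controls and clones share a parental line, or whether libraries came from separate cultures. Each clone contributes 1 library, and the p-values reflect only library-to-library spread, which may be technical. The targeted gene, Exosc2, measured 2457, 2473 and 1954 in controls 1, 2 and 3 and 1138, 997 and 981 in clones 5, 6 and 7, so the clones held 45.3% of the control mean. Levels are scaled counts. Each log2 fold change (clones over controls) is given ± its SE, was computed on log2(scaled count + 1), and so understates changes of low genes. A gene was called at an adjusted p under 0.05 in limma, a linear model fitted across 15179 genes.

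Iron enters most cells bound to transferrin, is stored in ferritin and leaves through a single exporter. The transferrin receptor (Tfrc) carries transferrin into endosomes, where the reductase Steap3 and the transporter Slc11a2 (DMT1) free the iron and move it to the cytosol. Ferritin is a shell of heavy (Fth1) and light (Ftl1) subunits, Ncoa4 delivers it to lysosomes for breakdown, Hmox1 releases iron from heme, and ferroportin (Slc40a1) exports it. The iron regulatory proteins, encoded by Aco1 and Ireb2, bind hairpins called iron-responsive elements (IREs) when iron is scarce. Binding in a 5′ untranslated region (UTR) blocks translation, and binding in the Tfrc 3′ UTR protects that mRNA from decay.

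The clone libraries went against their ESC label. Of 15 ESC markers 13 were lower and 2 (Pou5f1 and Klf4) higher in the clones, Zfp42, Utf1 and Dppa3 had no clone read, and Nanog went from a mean of 9698 to 0.674. The summed level of this list ranged from 130978 to 142427 in controls and from 105380 to 115615 in clones, of which Pou5f1 made up most in the clones (mean 91114). Fibroblast markers were higher in 8 of 9 tested, with sums of 9119 to 10341 and 49639 to 64625. Epithelial and keratinocyte markers were higher in 6 and lower in 3 of 9 (sums 22991 to 36778 and 21370 to 27076), and Krt6a had no control read. Macrophage markers were higher in 3 and lower in 1 of 6 (sums 697 to 1328 and 2134 to 2551). Erythroid markers were higher in 1 and lower in 4 of 5 (sums 131 to 208 and 69.9 to 95.5), with Tal1 at 0 in the clones. Of 10 hepatocyte and visceral endoderm markers only Trf passed the filter (summed level 68.3 to 99.4 and 6.96 to 11.99), and Trf, Hnf4a and Sox17 were at 0 in the clones. Over all genes tested 35.2% were called higher and 38.3% lower, and whether any marker list differs from that was not tested. The part of these cell-state differences in the iron gene results was not tested. In bulk RNA, fewer cells of a type and less RNA per cell cannot be told apart.

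The IRE hairpins tie uptake, storage and export together, and 4 of the 10 genes carry a site that met a strict search. The search took GENCODE M21 transcripts (GRCm38, the assembly of mm10) and looked on the sense strand for a bulged C, any 5 bases, the loop letters CAGTG and a sixth base other than G, and then 5 bases that all pair with the first 5 (G with T allowed). The sites are shown because they are the regulatory sequence these genes share, with the 6-base loop in capitals.
Fth1 5′ UTR: ttcctgcttcaaCAGTGCttgaacggaacc
Ftl1 5′ UTR: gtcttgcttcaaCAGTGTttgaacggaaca
Slc40a1 5′ UTR: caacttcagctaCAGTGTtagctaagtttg
Tfrc 3′ UTR site 1: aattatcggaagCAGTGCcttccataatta
Tfrc 3′ UTR site 2: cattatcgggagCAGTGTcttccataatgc
Tfrc 3′ UTR site 3: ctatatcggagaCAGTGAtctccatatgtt
Tfrc 3′ UTR site 4: aattatcgggaaCAGTGTttcccataattt

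The Fth1 site lies at chr19:9982732-9982761 on the plus strand, the Ftl1 site at chr7:45459778-45459807 on the minus strand and the Slc40a1 site at chr1:45925464-45925493 on the minus strand. The Ftl1 and Slc40a1 sites are in exon 1, and the Fth1 site is in exon 1 or 2 depending on the transcript. All 4 Tfrc sites are in exon 19 on the plus strand, at chr16:32631219-32631248, chr16:32631598-32631627, chr16:32631663-32631692 and chr16:32631710-32631739. In the reference transcripts the bulged C of the 5′ sites stands at base 93 (Fth1), 84 (Ftl1) and 96 (Slc40a1), while those of the Tfrc sites stand 889 to 1380 bases past the end of the coding sequence. The strict pattern was found in the 5′ UTR of 23 of 20971 protein-coding genes (0.11%) and in the 3′ UTR of 110 of 21130 (0.521%). The CAGTG loop letters alone stood in 34% of 5′ UTRs and 72.6% of 3′ UTRs. No strict match was found in the UTRs of Slc11a2, Hmox1, Ireb2, Aco1, Ncoa4 or Steap3, which says only that these letters with this pairing are not there.

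**Figure D1:**
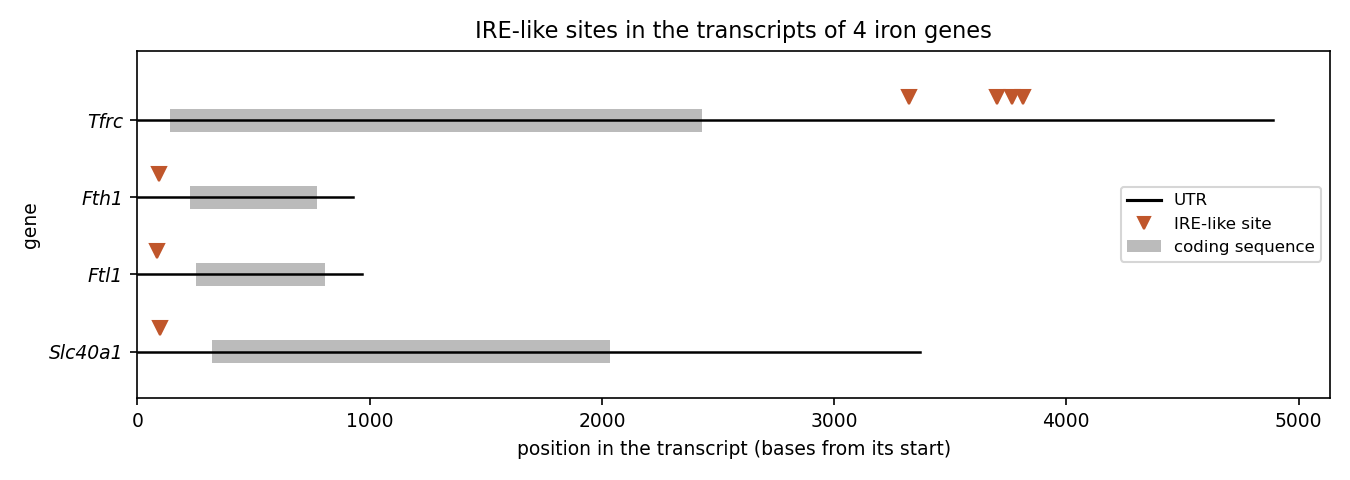
Positions of IRE-like sites (triangles) along 1 reference transcript each of Tfrc, Fth1, Ftl1 and Slc40a1, in bases from the transcript start; grey bars are coding sequence and lines are UTRs. Tfrc has 4 sites after the coding sequence, and the other genes have 1 site each before it.

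Of the 10 genes, 2 rose (Fth1 and Slc11a2), 5 fell (Tfrc, Slc40a1, Steap3, Ireb2 and Ncoa4) and 3 did not pass (Ftl1, Hmox1 and Aco1). Over all genes tested, 35.2% were called higher and 38.3% lower (73.5% in either direction), so a count of 7 called among 10 is near the background. The median log2 fold change of the 10 was -0.53, against -0.07 over all genes tested. At least 2-fold changes were called for 4 of the 10 (Tfrc, Slc40a1, Steap3 and Ireb2, all lower), and in either direction for 48.1% of all genes. Control and clone values did not overlap for 9 of the 10, with 2 higher and 7 lower in the clones, against 77.3% of all genes (36.7% higher and 40.6% lower). Within the controls the order of libraries was uneven: replicate 3 was highest for 7 of the genes and replicate 2 lowest for 6. The median log2 fold change of all tested genes on a chromosome ranged from -0.60 (chromosome 1) to 0.35 (chromosome 19) over the chromosomes that hold the 10 genes, and no test of these medians was made. Values are therefore also given after chromosome centring, which subtracts a median for each chromosome within each library. Centred values can thus differ slightly from the log2 fold change less the chromosome's median.

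**Figure D2:**
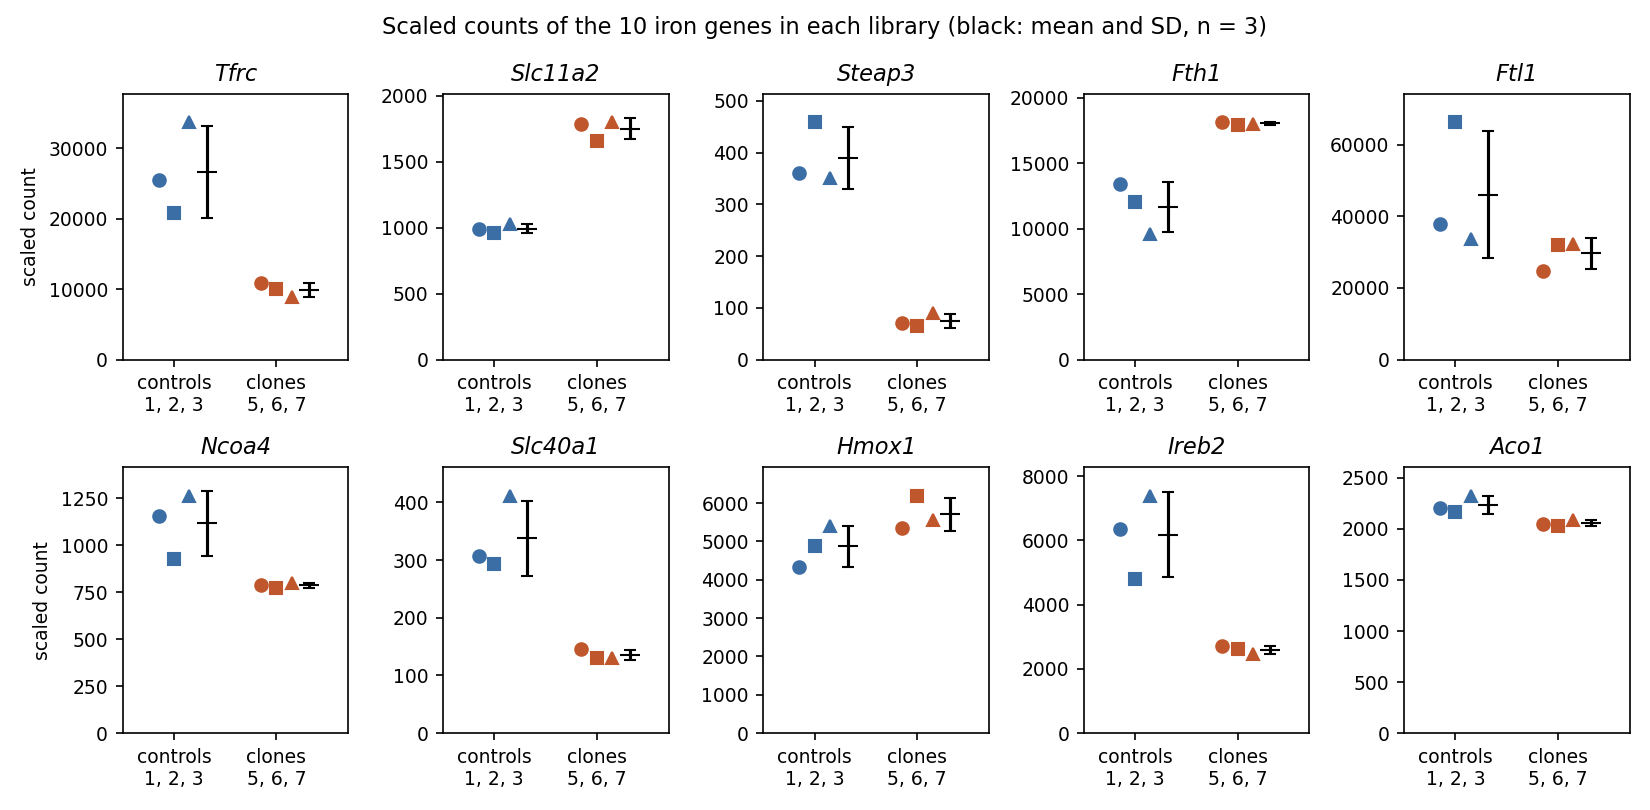
Scaled counts of the 10 genes in each library; blue points are controls 1, 2 and 3, orange points clones 5, 6 and 7, and black marks the mean and SD (n = 3). Tfrc, Slc40a1, Steap3 and Ireb2 sit lower in every clone than in every control, Slc11a2 and Fth1 sit higher, and Hmox1 values overlap.

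Among the uptake genes, the receptor and the endosomal reductase fell and the endosomal transporter rose. Tfrc (chromosome 16, positions 32608920 to 32632794) measured 25426, 20780 and 33697 in controls 1, 2 and 3, and 10868, 9959 and 8878 in clones 5, 6 and 7. Every clone was below every control, and the controls spread by 1.62-fold between the lowest and the highest. The mean went from 26634 ± 6543 (SD, n = 3) to 9902 ± 996, 37.2% of the control level, with a log2 fold change of -1.40 ± 0.17 and an adjusted p of 9.1e-05 in limma. The median of chromosome 16 was 0.16, and after centring the Tfrc value was -1.55.

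Steap3, which reduces ferric to ferrous iron in the endosome, had the largest change of the 10. Its scaled counts (chromosome 1, positions 120190757 to 120272705) were 360, 459 and 352 in controls 1, 2 and 3, and 70.6, 64.7 and 90.4 in clones 5, 6 and 7. The highest clone lay far under the lowest control. The clone mean of 75.3 ± 13.5 was 19.3% of the control mean of 390 ± 59.8 (log2 fold change -2.36 ± 0.21, adjusted p of 9.6e-06 in limma). Chromosome 1 had a median of -0.60, and centring gave -1.78 for Steap3, still called (adjusted p = 9.1e-05 in limma).

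Slc11a2, the proton-coupled transporter that carries ferrous iron across the endosomal membrane, moved the other way. Its scaled counts (chromosome 15, positions 100387898 to 100425072) were 992, 959 and 1031 in the controls and 1791, 1658 and 1803 in clones 5, 6 and 7. Replicates were close within both groups, and the groups did not overlap. The mean rose from 994 ± 35.8 to 1751 ± 80.1, a log2 fold change of 0.82 ± 0.10 with an adjusted p of 8.8e-05 in limma, and 0.55 after centring. Its 3′ exons have isoforms with and without an IRE, which values per gene cannot separate. A stretch of 402 exon bases overlaps the opposite-strand gene Gm5475, and no source used here says whether reads were counted by strand.

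In storage, the heavy ferritin subunit rose while the light subunit did not pass the test. Fth1, whose product oxidises iron for storage (chromosome 19, positions 9980598 to 9985098), measured 13383, 12037 and 9592 in controls 1, 2 and 3. In clones 5, 6 and 7 it measured 18147, 17957 and 18011, above every control and within 1.01-fold of each other. Mean levels were 11671 ± 1922 and 18039 ± 97.8, 1.55-fold higher in the clones (log2 fold change 0.64 ± 0.13, adjusted p of 0.002 in limma). The median of chromosome 19 was 0.35. After chromosome centring, Fth1 had a log2 fold change of 0.25 and was no longer called (adjusted p = 0.114 in limma).

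Ftl1, the light subunit that helps nucleate the iron core (chromosome 7, positions 45457944 to 45459884), measured 37943, 66284 and 33718 in controls 1, 2 and 3. The clones measured 24752, 32117 and 32224. Control 2 stood far above controls 1 and 3, and the lowest control was close to the highest clone. The means were 45982 ± 17709 and 29698 ± 4284, with a log2 fold change of -0.58 ± 0.24, a 95% interval of -1.13 to -0.02 and an adjusted p of 0.059 in limma. Without control 2 the value was -0.28 (adjusted p = 0.13 in limma). It was called with edgeR (-0.66, adjusted p = 0.037), with DESeq2 (-0.64, adjusted p = 0.015) and without control 3 (-0.77, adjusted p = 0.027 in limma).

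Ferritin genes have annotated copies and relatives, so their counts are uncertain. How alike these are in sequence, and how reads were shared between them, was not measured. The Ftl1 copy that GENCODE names Ftl1-ps1 (Gm10116 in the table, chromosome 13) measured 139, 189 and 136 in controls 1, 2 and 3 and 79.6, 102 and 91.3 in clones 5, 6 and 7. It was highest in control 2, as was Ftl1. Fthl17a, a protein-coding relative on the X chromosome, had 1.89, 2.16 and 51.2 in the controls and no clone read. Ftl1 also overlaps the annotated microRNA Gm22133 over 109 exon bases and the opposite-strand Gm10252 over 355.

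Ncoa4, the receptor that takes ferritin to the lysosome (chromosome 14, positions 32159865 to 32179855), was lower by a small margin. It measured 1157, 926 and 1264 in controls 1, 2 and 3 and 789, 771 and 797 in clones 5, 6 and 7. All clones lay under control 2, the lowest control. The mean went from 1115 ± 173 to 786 ± 13.6 (log2 fold change -0.49 ± 0.14, adjusted p of 0.01 in limma). The median of chromosome 14 was -0.57, and after centring Ncoa4 turned to 0.087 (adjusted p = 0.519 in limma).

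Slc40a1, the exporter, fell. The gene (chromosome 1, positions 45908068 to 45926523) measured 308, 293 and 412 in controls 1, 2 and 3, and 146, 130 and 131 in clones 5, 6 and 7. No clone came near a control. The clone mean of 136 ± 8.95 was 40.3% of the control mean of 337 ± 64.9 (log2 fold change -1.29 ± 0.19, adjusted p of 2.4e-04 in limma). After chromosome centring the value was -0.71 and still called (adjusted p = 0.00413 in limma).

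Hmox1, the heme oxygenase that frees iron from heme, did not pass the test. The gene (chromosome 8, positions 75093621 to 75100589) measured 4344, 4881 and 5413 in controls 1, 2 and 3, and 5365, 6199 and 5567 in clones 5, 6 and 7. Clone 5 lay under control 3, so the groups overlapped. The log2 fold change was 0.23 ± 0.11, with a 95% interval of -0.03 to 0.49 and an adjusted p of 0.098 in limma. Without control 3 it was 0.31 and called (adjusted p = 0.027 in limma). Chromosome 8 had a median of -0.49, and after centring Hmox1 was called higher at 0.71 (adjusted p = 3.2e-04 in limma).

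Of the genes for the iron regulatory proteins, Ireb2 fell and Aco1 did not pass the test. Ireb2, which encodes IRP2, the protein degraded when iron is plentiful (chromosome 9, positions 54863789 to 54912530), measured 6359, 4790 and 7394 in controls 1, 2 and 3. In clones 5, 6 and 7 Ireb2 measured 2709, 2610 and 2471. Its controls took the same order as those of Tfrc, Slc40a1, Slc11a2, Aco1 and Ncoa4, with replicate 3 highest and replicate 2 lowest. All clones were lower than all controls for Ireb2. The Ireb2 mean went from 6181 ± 1311 to 2597 ± 119, 42.0% of the control level (log2 fold change -1.23 ± 0.16, adjusted p of 9.6e-05 in limma, and -1.09 after centring).

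Aco1 encodes IRP1, which is a cytosolic aconitase when it holds an iron-sulfur cluster and an RNA-binding protein without it. The gene (chromosome 4, positions 40143081 to 40198338) measured 2209, 2161 and 2327 in controls 1, 2 and 3, and 2046, 2029 and 2087 in clones 5, 6 and 7. The groups did not overlap, yet the gap was small. The log2 fold change was -0.12 ± 0.09 and its 95% interval ran from -0.33 to 0.09 (adjusted p of 0.267 in limma). With quantile normalization it was called lower (-0.31, adjusted p = 0.014 in limma), and after chromosome centring it was 0.16 and not called.

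**Figure D3:**
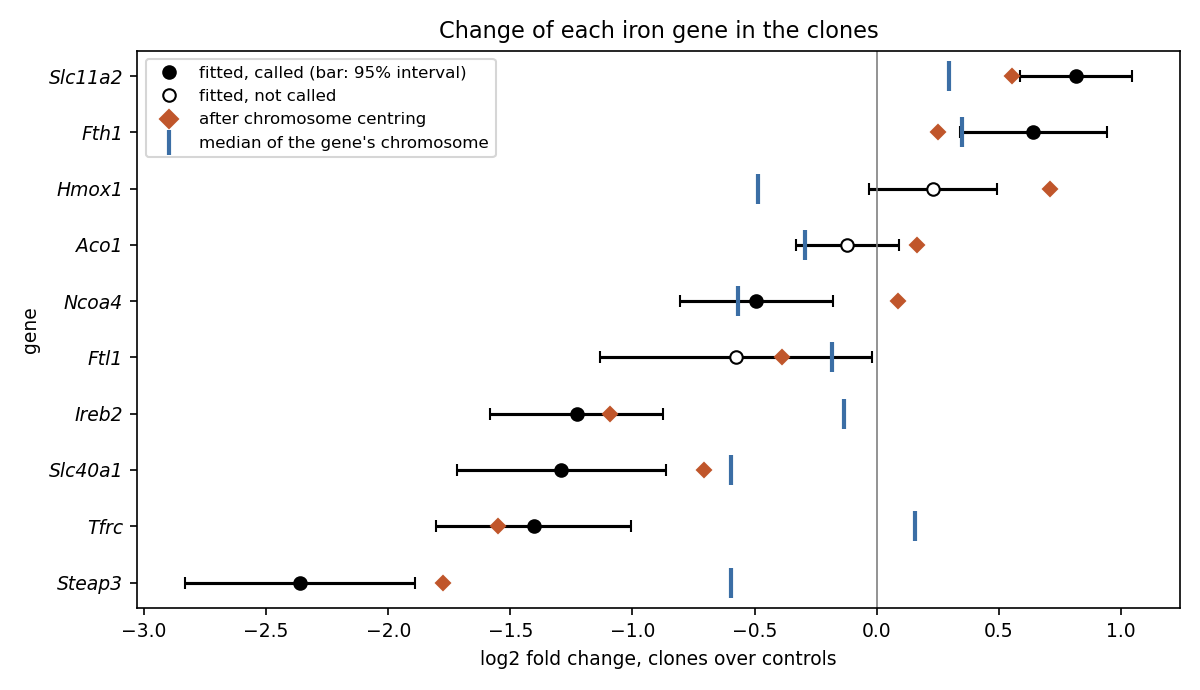
Log2 fold change of each gene (circles with 95% intervals; filled if called), the value after chromosome centring (diamonds) and the median of its chromosome (blue ticks). Tfrc, Slc40a1, Steap3 and Ireb2 stay below 0 and Slc11a2 above 0 in both, while Ncoa4 and Aco1 change sign.

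Ratios within a library, which do not depend on library scaling, showed how the genes moved against each other. The ratio of Fth1 to Ftl1 scaled counts was 0.353, 0.182 and 0.284 in controls 1, 2 and 3 and 0.733, 0.559 and 0.559 in clones 5, 6 and 7. All clones were above all controls, by 1.217 on the log2 scale (SD 0.49 in controls and 0.23 in clones), a 2.33-fold higher ratio. The medians of chromosomes 19 and 7 differ by 0.53, and the difference between the centred values was 0.64.

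The ratio of Tfrc to Fth1 was 1.90, 1.73 and 3.51 in controls and 0.599, 0.555 and 0.493 in clones, 4.13-fold lower. The receptor count thus exceeded the heavy ferritin count in every control and was below it in every clone; these are counts, not corrected for length. The ratio of Ireb2 to Aco1 was 2.88, 2.22 and 3.18 in controls and 1.32, 1.29 and 1.18 in clones, 2.16-fold lower. For these ratios and Fth1 to Ftl1, p was 0.1 in an exact permutation test (two-sided), the smallest value possible with 3 libraries per group, and 0.133 after adjustment over the 4 ratios.

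The ratio of Tfrc to Slc40a1, the receptor against the exporter, was 82.6, 71.0 and 81.8 in controls and 74.3, 76.3 and 67.8 in clones. The groups overlapped, and their log2 means of 6.29 ± 0.12 and 6.18 ± 0.09 (SD, n = 3) differed by -0.11 (exact two-sided permutation p = 0.3, and 0.3 adjusted). After chromosome centring the difference was -0.85, and the medians of chromosomes 16 and 1 differ by 0.75.

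**Figure D4:**
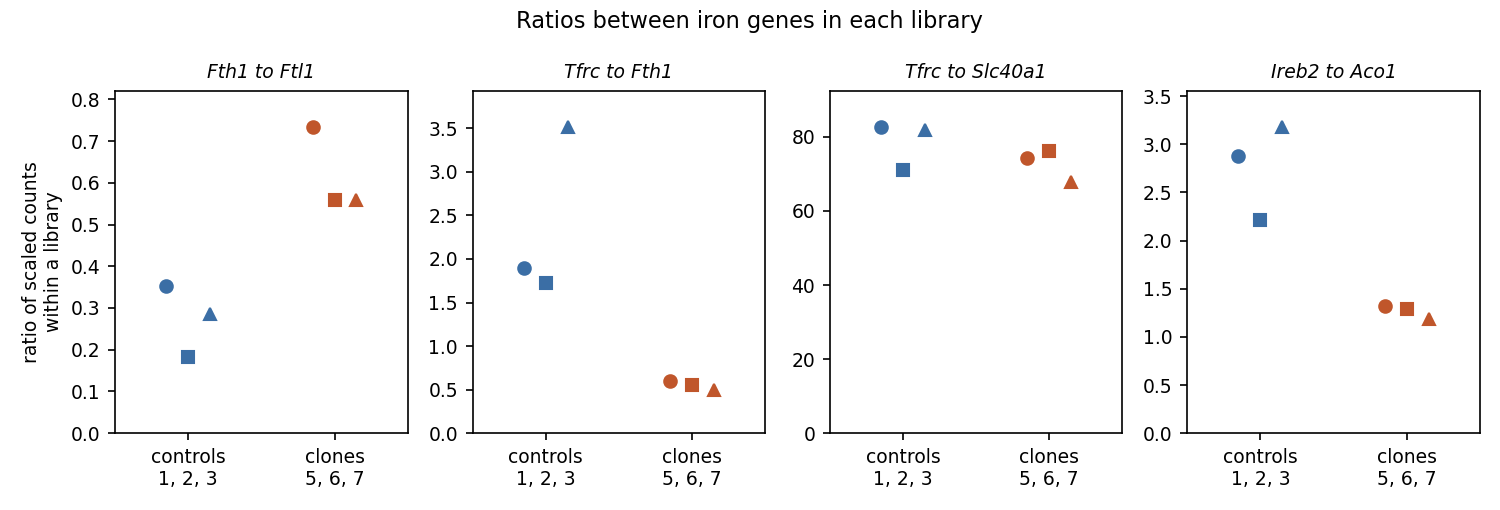
Ratios of scaled counts between pairs of iron genes in each library; blue points are controls 1, 2 and 3 and orange points clones 5, 6 and 7. The groups separate for Fth1 to Ftl1, Tfrc to Fth1 and Ireb2 to Aco1, and overlap for Tfrc to Slc40a1, whose 6 values lie between 67.8 and 82.6.

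Levels between genes were compared as scaled counts per kb of annotated exon. In the controls Ftl1 stood highest at 34315 ± 13215 (SD, n = 3), followed by Tfrc at 4306 ± 1058, Fth1 at 3364 ± 554 and Hmox1 at 2786 ± 305. The ranges of Tfrc and Fth1 overlapped, as did those of Fth1 and Hmox1. Ireb2 (652 ± 138) and Aco1 (497 ± 19.0) also overlapped, and Slc11a2 (156 ± 5.63), Ncoa4 (119 ± 18.5), Steap3 (68.3 ± 10.5) and Slc40a1 (37.5 ± 7.21) followed in separate ranges.

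In the clones the order per kb was Ftl1 (22162 ± 3197), Fth1 (5200 ± 28.2), Hmox1 (3261 ± 249), Tfrc (1601 ± 161) and Aco1 (457 ± 6.58), with no overlap between neighbours. By these exon lengths, Tfrc went from the second place to the fourth. Its place relative to Fth1 depends on the length used. Annotated exons sum to 3469 bases for Fth1 and 6185 for Tfrc, while their reference transcripts have 929 and 4890 bases. Per base of these reference transcripts, Fth1 stood above Tfrc in every control and every clone. The move of Tfrc past Fth1 was thus seen with the summed exon lengths and not with these. The places of the other genes by reference transcript lengths were not tested. Slc11a2 (275 ± 12.6) and Ireb2 (274 ± 12.6) could not be told apart, nor could Slc40a1 (15.1 ± 0.994) and Steap3 (13.2 ± 2.35) at the bottom, below Ncoa4 (83.9 ± 1.45). Exon lengths sum all annotated isoforms, so genes with long rare isoforms read low.

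Spread between libraries was also recorded within each group, and its difference between groups was not tested. The coefficient of variation in the controls was 38.5% for Ftl1, 24.6% for Tfrc, 21.2% for Ireb2 and 19.2% for Slc40a1, against a median of 15.6% over 12403 genes with a mean of at least 50. Slc11a2 (3.60%) and Aco1 (3.83%) varied least. In the clones the values were 0.542% for Fth1, 1.44% for Aco1 and 1.73% for Ncoa4, against a median of 7.59%, and Steap3 was the most variable at 17.9%. Likeness to the pattern of Steap3 was measured on log2 values less each gene's own mean, without chromosome centring. By the root mean square difference over the 6 libraries, the genes most like Steap3 were Ankrd35 (0.10), Csrp2 (0.11) and Phc1 (0.12).

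Other genes of iron transport and its regulation had calls in both directions, with a called share near that of all genes. Of 39 listed genes 33 were in the table and 32 were tested; 15 rose, 8 fell and 9 passed in neither direction (median 0.50 on the log2 scale), beside 73.5% of all genes called (35.2% higher and 38.3% lower). Slc39a14, a zinc and iron transporter for iron not bound to transferrin, measured 3470, 2994 and 2816 in controls and 10853, 10539 and 10902 in clones (log2 fold change 1.80 ± 0.10, called). Its relative Slc39a8 went from 65.1 ± 19.3 to 3191 ± 307 (5.63 ± 0.21), also called. Scara5, a receptor for serum ferritin, rose from 35.9 ± 9.02 to 1668 ± 430 (5.50 ± 0.26).

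Slc48a1, which carries heme out of endosomes and lysosomes, went up from 647 ± 87.9 to 8965 ± 127 (log2 fold change of 3.80 ± 0.12, adjusted p of 5.7e-08 in limma). Transferrin itself (Trf) was low, with 37.9, 57.2 and 37.2 in controls and no clone read, at least 14.97-fold lower against a floor of 3 reads per library. Hjv, the hemojuvelin co-receptor that acts upstream of hepcidin (named after its values were seen), measured 64.4, 70.2 and 71.3 in controls and also had no clone read, at least 23.3-fold lower. Such floors cover counting error only. With both genes at these bounds the list median stayed at 0.50.

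Pcbp2, Pcbp1, Fbxl5 and Bach1 were chosen whatever their values. Trf, Slc39a14, Hmox2, Fech and Alas1 were chosen in the same way, are described with their lists and were each called. Over all genes tested 73.5% were called. Pcbp2, an iron chaperone that also binds RNA, fell from 20261 ± 2528 to 11318 ± 481 (log2 fold change -0.83 ± 0.12, adjusted p of 1.9e-04 in limma). Pcbp1, which loads ferritin, measured 9453 ± 1715 and 7547 ± 607 and did not pass (-0.31 ± 0.14, adjusted p of 0.076 in limma). Fbxl5, the iron-sensing ligase subunit that degrades IRP2, measured 2018 ± 218 and 2193 ± 83.6 (0.13 ± 0.11). Bach1, the heme-sensing repressor of Hmox1, measured 1656 ± 359 and 1438 ± 70.9 (-0.18 ± 0.15), and neither of these passed.

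Among heme genes 18 were tested. Of these 6 rose and 3 fell, 9 passed in neither direction, and the median was 0.30. That is 9 of 18 called, beside 73.5% of all genes (35.2% higher and 38.3% lower), and the difference was not tested. Alas1, the first and rate-limiting enzyme of heme synthesis outside red cells, rose from 818 ± 36.6 to 2416 ± 190 (1.56 ± 0.11, adjusted p of 2.4e-06 in limma). Fech, which inserts iron into the ring, rose from 824 ± 52.8 to 1490 ± 102 (0.85 ± 0.11). Hmox2, the constitutive heme oxygenase, rose from 955 ± 100 to 1305 ± 79.7 (0.45 ± 0.12). The Hmox2 call was lost with quantile normalization (0.23) and after chromosome centring (0.31).

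Of the iron-sulfur cluster genes 15 of 30 were called, beside 73.5% of all genes, and the difference was not tested. All 30 were tested: 8 rose, 7 fell and 15 passed in neither direction, with a median of -0.07, against 35.2% higher and 38.3% lower over all genes. Nfs1, the desulfurase that supplies sulfur, rose from 853 ± 48.8 to 1489 ± 29.6 (0.80 ± 0.10). Nubpl, which serves complex I, fell from 620 ± 28.9 to 241 ± 12.8 (-1.36 ± 0.13), and Ciapin1, of the cytosolic pathway, from 3655 ± 739 to 1484 ± 110 (-1.28 ± 0.16).

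Outside the 10 genes, transcripts described as carrying an IRE rose in 6 of 7 tested and fell in none, with a median of 2.46, against 35.2% higher and 38.3% lower over all genes; with 7 genes, nothing particular to the list is read from this. Epas1, the hypoxia factor HIF-2alpha, measured 1905, 1857 and 1091 in controls and 21802, 29066 and 21107 in clones (3.92 ± 0.22), and it is also in the transport list. Cdc42bpa, a kinase, rose from 1171 ± 129 to 4701 ± 178 (2.01 ± 0.11), and Cdc14a, a phosphatase, from 128 ± 17.8 to 704 ± 58.1 (2.46 ± 0.16). Among all 21 genes of the table with the strict pattern in a 5′ UTR, 5 rose and 12 fell (median -0.50, with Fth1, Ftl1, Slc40a1 and the copy Gm10116 among them). For the 3′ UTR, 39 of 89 tested rose and 31 fell (median 0.17), a called share near the 73.5% over all genes. Over all genes 35.2% were higher and 38.3% lower, and whether either set differs from that was not tested.

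**Figure D5:**
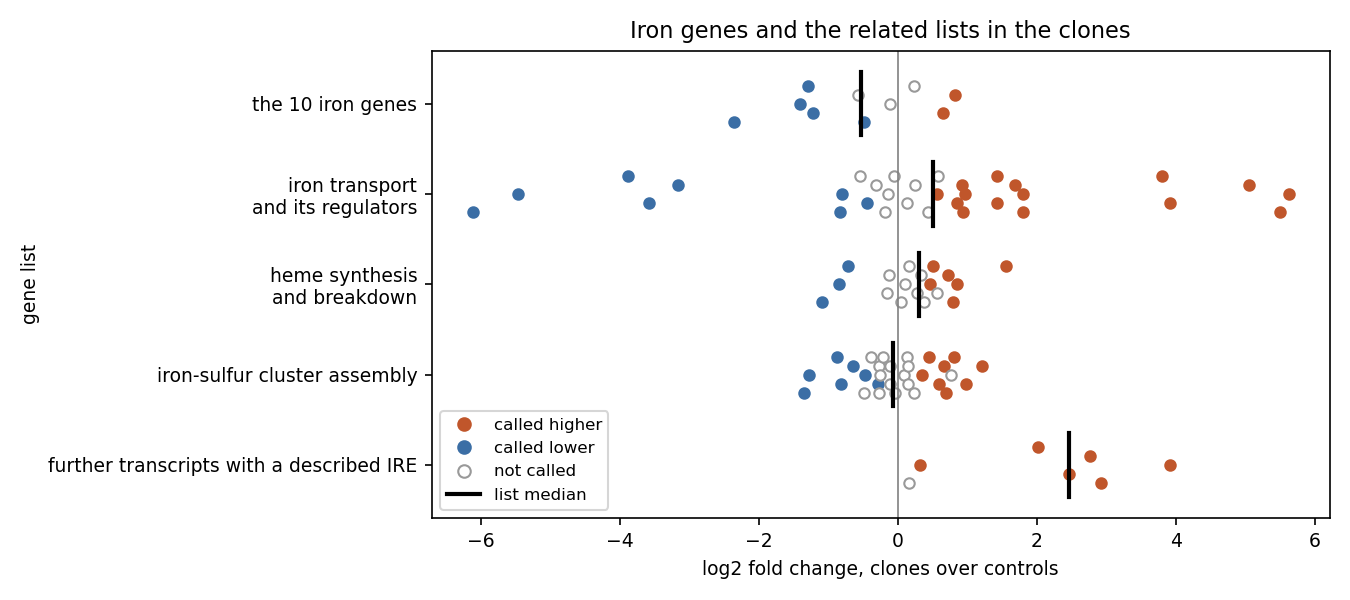
Log2 fold change of each tested gene, by list; orange points were called higher, blue lower and open points not called, and black bars mark list medians. The 10 iron genes lie between -2.36 and 0.82, and the wider transport list between -6.12 and 5.63.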

How the data were processed

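Libraries were made from 500 ng of total RNA with poly(A) selection, a stranded TruSeq kit and 8 amplification cycles, per the labels' protocols. Per the submitters' processing notes, mm10 was used with the tools STAR 2.5.0a, HTSeq 0.5.3, cutadapt 1.6 and DESeq 1.22.1; their settings are not given in the sources used here. The deposited signal is read counts per gene, scaled by the authors with DESeq. Dividing by each library's smallest value gave whole reads for 100% of values (within 0.001 read), 21107761 to 26494985 per library.

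Groups came from sample titles. Genes averaging 10 or more were fitted with limma 3.58.1 (trended eBayes) on log2 values with a pseudocount of 1, with Benjamini-Hochberg adjustment at 0.05; the scripts were tested on simulated data. Intervals are limma's 95% intervals. Chromosome centring subtracted, in each library, each chromosome's median deviation from the control mean. Other alternatives were pseudocounts, filters, TMM and quantile scaling, eBayes settings, leaving out each library, and count tests on the recovered reads: edgeR 4.0.16 called 5190 genes higher and 5960 lower, and DESeq2 1.42.0 called 5222 and 5910, against 5347 and 5811 with limma. Exon lengths and positions came from GENCODE M21, matched for 17860 genes (99.71%).

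The 10 genes and the lists were chosen with earlier results of these data known. Besides the 10, the text names Exosc2, the 3 tested genes with the smallest p in each list, Trf, Fbxl5, Slc39a14, Pcbp1, Pcbp2, Hmox2, Fech, Alas1 and Bach1 whatever their values, and the 3 genes most like Steap3. Hjv falls outside this rule and was named after its values were seen. Ferritin copies and cell type markers are named for the checks they serve. Some genes that this rule selects are not reported here. Analyses used R 4.3.3 and Python 3.11.15.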

Additional observations from a re-analysis of the deposited data

How the results depend on the processing

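Over 17 alternatives, Tfrc, Slc40a1, Slc11a2, Ireb2 and Steap3 kept their direction and their call in every one, with log2 fold changes of -1.57 to -1.22, -1.38 to -0.71, 0.55 to 0.85, -1.40 to -1.09 and -2.50 to -1.78. Fth1 ranged from 0.25 to 0.75 and lost its call after chromosome centring only. Ncoa4 ranged from -0.71 to 0.087, and Aco1 from -0.31 to 0.16; both reversed after chromosome centring, to 0.087 and 0.16. Fbxl5 reversed with quantile normalization (-0.063) and after centring (-0.17). Ftl1 was called in 3 of 17 and Hmox1 in 2 of 17. Bach1 was called lower with quantile normalization (-0.39). Pcbp1 was called lower with quantile normalization (-0.44), after centring (-0.70) and without control 3 (-0.45). The number of transport genes called lower was 4 with a mean of at least 50, where fewer genes are tested, and 1 transcript with a described IRE was called lower without a filter, where more genes are tested. The median over all genes ranged from -0.14 without a filter to 0.02 with a mean of at least 50. No paired analysis was possible because controls are numbered 1 to 3 and clones 5 to 7. In the limma fit used for the calls, with 3 libraries per group, the 95% intervals of Aco1 and Hmox1 include 0. Neither a rise nor a fall is read from them. The interval of Ftl1 (-1.13 to -0.02) excludes 0, but its adjusted p was 0.059 in limma.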
